A study of Caenorhabditis elegans with 2 samples.

Results

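The genes described here encode short-chain, alcohol and aldehyde dehydrogenases and flavin monooxygenases of *C. elegans*. They were taken by gene symbol, as the numbered genes named *dhs*, *alh*, *fmo*, *adh* or *sodh*. The rule, set with earlier results of these data known, leaves out *alh-3*, *alh-8* and *dhs-28* by name, and all genes named *sdz*. The intervals of the read ratios of *alh-3*, *alh-8* and *dhs-28* all lay above 1, as did that of *sdz-8* (1.09 to 2.53). The rule gave 47 of the 18510 genes in the deposited table, of which 28 were *dhs*, 11 *alh*, 5 *fmo*, 1 *adh* and 2 *sodh*. The study compared whole wild-type N2 nematodes given 2 mM AbaPep#07 from the L4 stage, the last larval stage, with untreated nematodes (Control, 0 mM). AbaPep#07 is an abalone peptide whose sequence matches hemocyanin, and both cultures were grown in liquid medium on *E. coli* NA22 and frozen at Day 10 of adulthood. Each condition is 1 library of RNA pooled from many nematodes. No difference below therefore has a replicate check within these libraries, and no p-value is given. Separately, the paper reports from quantitative PCR on biological repeats that the transcript level of *fmo-2* was increased by the peptide. Those measurements are not part of the data used here.

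Short-chain dehydrogenases/reductases and alcohol dehydrogenases move hydride between a substrate and NAD(H) or NADP(H), interconverting alcohols with aldehydes or ketones. Aldehyde dehydrogenases oxidize the resulting aldehydes, which are reactive and toxic, to acids. Flavin monooxygenases use NADPH and oxygen to oxidize nitrogen and sulfur atoms of small molecules. All are counted among phase I enzymes of xenobiotic metabolism, although many members act in fat, steroid, amino acid or alcohol metabolism instead. In nematodes several of them are expressed in the intestine, where the transcription factor SKN-1/Nrf also acts.

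The AbaPep#07 library held 19241145 reads in all and the Control library 19409907, and reads here are RSEM estimates. Markers of intestine, body wall muscle, neurons, germline and oocytes were at a level (TPM, transcript share scaled for length and depth) of 1 or more in both libraries for all listed genes, and of 4 early embryo markers 0 were. Summed marker levels were 8703 TPM with AbaPep#07 and 9091 TPM in Control for 4 intestinal genes. They were 335 and 408 TPM for 4 germline genes, 218 and 323 TPM for 3 adult hypodermal genes, of which *col-19* alone was at 1 TPM or more, and 37.2 and 30.6 TPM for 4 moulting genes. The part of such shifts in the differences below was not tested, and in RNA of whole nematodes fewer cells of a type cannot be told apart from less RNA per cell.

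Most of these genes were at close to the same level in both libraries, as were most genes of the table. Of the 47 genes, 40 differed by less than 1.5-fold in reads scaled by the library total. Among those with at least 100 reads over both libraries they were 38 of 41 members (92.7%), against 9958 of 11002 genes (90.5%). The study called a gene when its FPKM (fragments scaled for length and depth) differed 2-fold or more at a false discovery rate of 0.05 or less in a Poisson comparison of the 2 libraries. By these thresholds, *fmo-2* and *dhs-23* were called higher with AbaPep#07 and *dhs-15* was called lower. That is 2 of 47 genes higher (4.26%) and 1 lower (2.13%), against 2.1% and 1.43% of all genes in the table. Only the call of *fmo-2* rested on many reads in both libraries and stood far from the thresholds. The exact 95% interval of the read ratio, which covers counting error alone, lay above 1 for 14 members and below 1 for 6. Among the 41 members with at least 100 reads over both libraries the counts were 13 (31.7%) and 6 (14.6%), against 23.8% and 24.3% of all 11002 genes with that many reads. Over these 41 members the median log2 ratio of reads was 0.06, and it was -0.02 over the 11002 genes.

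Levels spanned about the same range in both libraries, and they can be compared between genes because TPM is scaled by transcript length. The alcohol dehydrogenase gene *sodh-1* was the highest member by far, with 1210 TPM with AbaPep#07 and 1128 TPM in Control, which is 43.7% and 43.9% of the TPM summed over all 47 genes. Next was *alh-1*, the homologue of mitochondrial aldehyde dehydrogenase ALDH2, with 299.6 and 279 TPM. At the other end, *alh-2* had 4 reads with AbaPep#07 and 1 read in Control, and *dhs-23*, *dhs-26*, *sodh-2*, *dhs-16* and *dhs-8* also had fewer than 100 reads in all. For *alh-2* the ratio of 4.04 has an interval of 0.399 to 199, so no change was detectable at this depth.

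**Figure D1:**
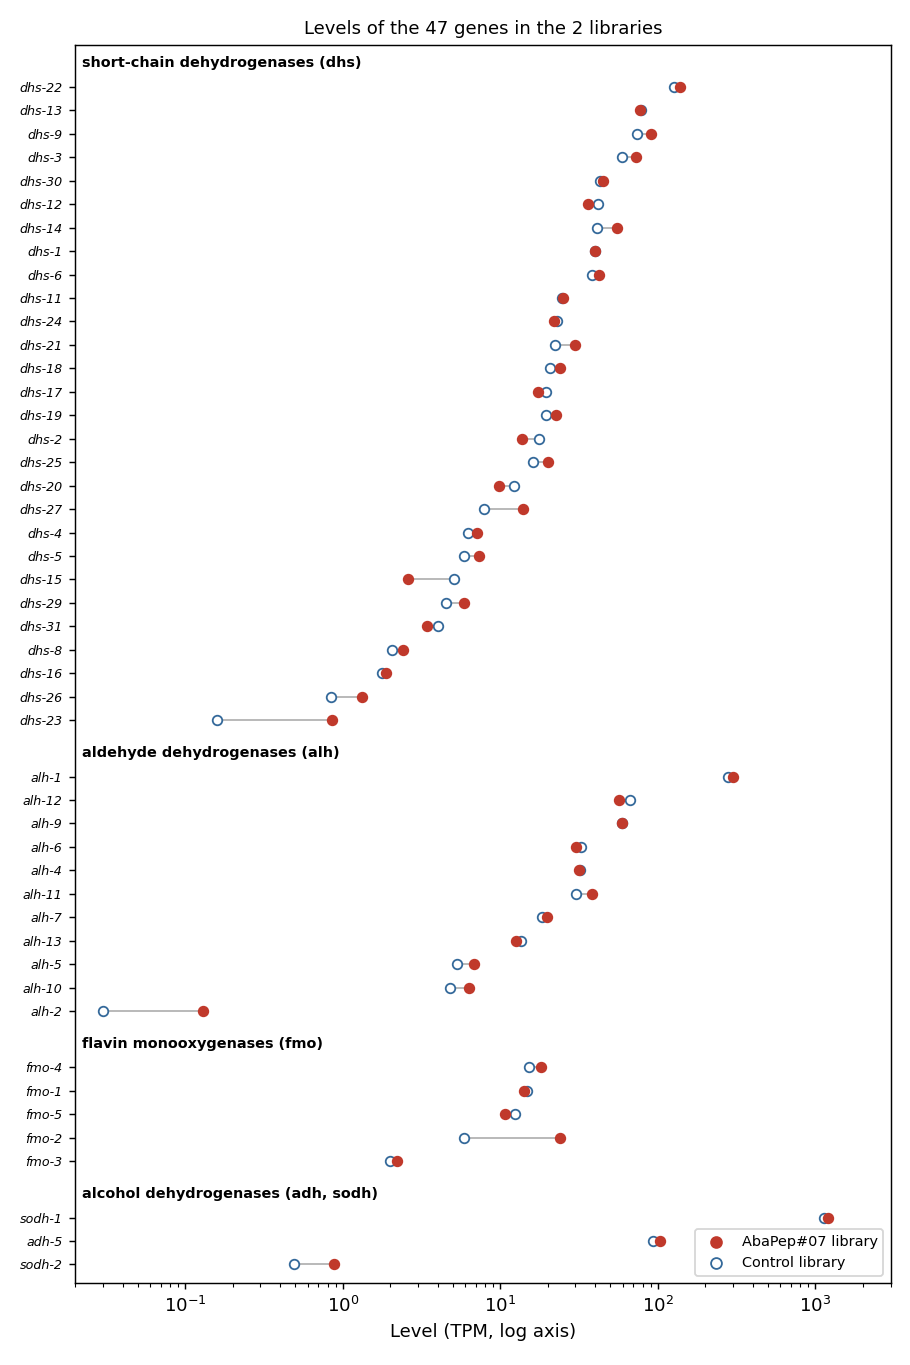
Level of each of the 47 genes in TPM (log axis) in the AbaPep#07 library (filled) and the Control library (open), by family and in order of the Control level; a line joins the 2 values of a gene. Nearly all pairs of points lie close together, while *fmo-2* stands at 23.9 TPM with AbaPep#07 and 5.84 TPM in Control.

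Among the flavin monooxygenases a single gene differed by more than 2-fold. *fmo-2* (NCBI gene 177958, chromosome IV, 10682524 to 10684367 on WBcel235, plus strand), whose product is known from work on hypoxia, dietary restriction and longevity in nematodes, had 734 reads with AbaPep#07 and 187 in Control. Its ratio of 3.96 has a counting interval (3.37 to 4.67) that lies wholly above 2-fold. It was the first of the 5 *fmo* genes by TPM with AbaPep#07 and the fourth in Control. Its close relatives did not share the difference. *fmo-4* had 704 reads with AbaPep#07 and 613 in Control, a ratio of 1.16 (1.04 to 1.29), and *fmo-3* had 70 and 65 reads, a ratio of 1.09 (0.764 to 1.55). *fmo-1* had 540 reads with AbaPep#07 and 587 in Control (0.928, 0.824 to 1.04), and *fmo-5* had 188 and 219 (0.866, 0.709 to 1.06), so that the intervals of both, like that of *fmo-3*, hold a ratio of 1. The level summed over the family was 69.1 TPM with AbaPep#07 and 50.1 TPM in Control, and without *fmo-2* it was 45.2 and 44.2 TPM. The call of *fmo-2* held under every alternative tried except 1, a test by edgeR in which cultures were assumed to vary with a coefficient of 0.4, under which 6 genes of the whole table were called higher. No exon of *fmo-2* overlaps that of another protein-coding gene, and its reads were whole numbers.

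The short-chain dehydrogenases were the largest family and moved in both directions, mostly by small amounts. Of 28 read ratios, 18 were above 1 and 10 below, against 9321 and 9189 of all 18510 genes. Among the 24 with at least 100 reads they were 14 and 10, against 5049 and 5953 of 11002 genes. *dhs-23* (NCBI gene 180038, chromosome V, 15381097 to 15382271) had the highest ratio of the family, 5.04, from 15 reads with AbaPep#07 and 3 in Control. Its interval of 1.43 to 27.2 does not settle whether the difference exceeds 2-fold, and its level was low in both libraries, 0.85 and 0.16 TPM. With 18 reads in all it was no longer called at a minimum of 20 reads, with 1 FPKM added to both values, with Bonferroni adjustment or with any assumed variation between cultures. *dhs-15* (NCBI gene 178739, chromosome V, 2768361 to 2769854) was the lowest, with 41 reads with AbaPep#07 and 83 in Control, a ratio of 0.498 (0.334 to 0.733). It lay at the threshold, as the ratio was 0.492 by FPKM and 0.511 by TPM, and it was not called by TPM or after TMM scaling, nor with 1 FPKM added, Bonferroni adjustment or assumed variation. Both calls rested on fewer reads than those of most members.

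Between these ends, *dhs-27* had the largest difference of any member with at least 100 reads that was not called. It had 245 reads with AbaPep#07 and 144 in Control, a ratio of 1.72 (1.39 to 2.12). The table annotates its product with a domain of the protein kinase-like superfamily beside the dehydrogenase domain, as for no other *dhs* gene. *dhs-21*, the nematode dicarbonyl/L-xylulose reductase, had 414 reads with AbaPep#07 and 319 in Control (1.31, 1.13 to 1.52). *dhs-14* had 823 and 638 reads (1.30, 1.17 to 1.45), and *dhs-25* had 343 and 282 (1.23, 1.05 to 1.44). *dhs-2* was lower with AbaPep#07, with 285 reads against 386 in Control (0.745, 0.637 to 0.870). *dhs-20* likewise had 255 reads with AbaPep#07 and 335 in Control (0.768, 0.650 to 0.906). Part of its exons overlaps those of F35B12.9, whose reads are given below. These differences exceed counting error, and in size all but that of *dhs-27* stay under 1.5-fold.

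Of the 5 *dhs* genes with the highest TPM in Control, 3 had intervals that hold a ratio of 1 and 2 were higher with AbaPep#07. *dhs-22*, annotated to the mitochondrial inner membrane, had 138 TPM with AbaPep#07 and 127 TPM in Control, from 2707 and 2593 reads (1.05, 0.998 to 1.11). *dhs-13* had 77.4 and 78.7 TPM (0.953, 0.893 to 1.02), and *dhs-30* had 44.9 and 43.1 TPM (1.01, 0.918 to 1.12). *dhs-9* was higher, with 1503 reads with AbaPep#07 and 1269 in Control (1.19, 1.11 to 1.29), and so was *dhs-3*, with 1168 and 976 (1.21, 1.11 to 1.32). *dhs-3* encodes a coat protein of intestinal lipid droplets that is widely used as their marker. The table annotates 4 members to the lipid droplet, a group formed after their values had been seen. All had read ratios above 1, namely *dhs-3*, *dhs-4* (1.11), *dhs-19* (1.12) and *dhs-29* (1.26), and *dhs-3* alone had an interval above 1. Of all 11002 genes with at least 100 reads, 5049 had ratios above 1 and 23.8% had intervals above 1. Of the 6 members annotated to mitochondria 3 had ratios above 1 and 3 below, and the interval of *alh-13* alone excluded 1. Of the 6 annotated to the endoplasmic reticulum, 4 had ratios above 1 and 2 below. *dhs-16*, which encodes a hydroxysteroid dehydrogenase of dafachronic acid hormone synthesis, had 46 reads with AbaPep#07 and 45 in Control (1.03, 0.669 to 1.59). No difference was detectable for it at this depth.

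**Figure D2:**
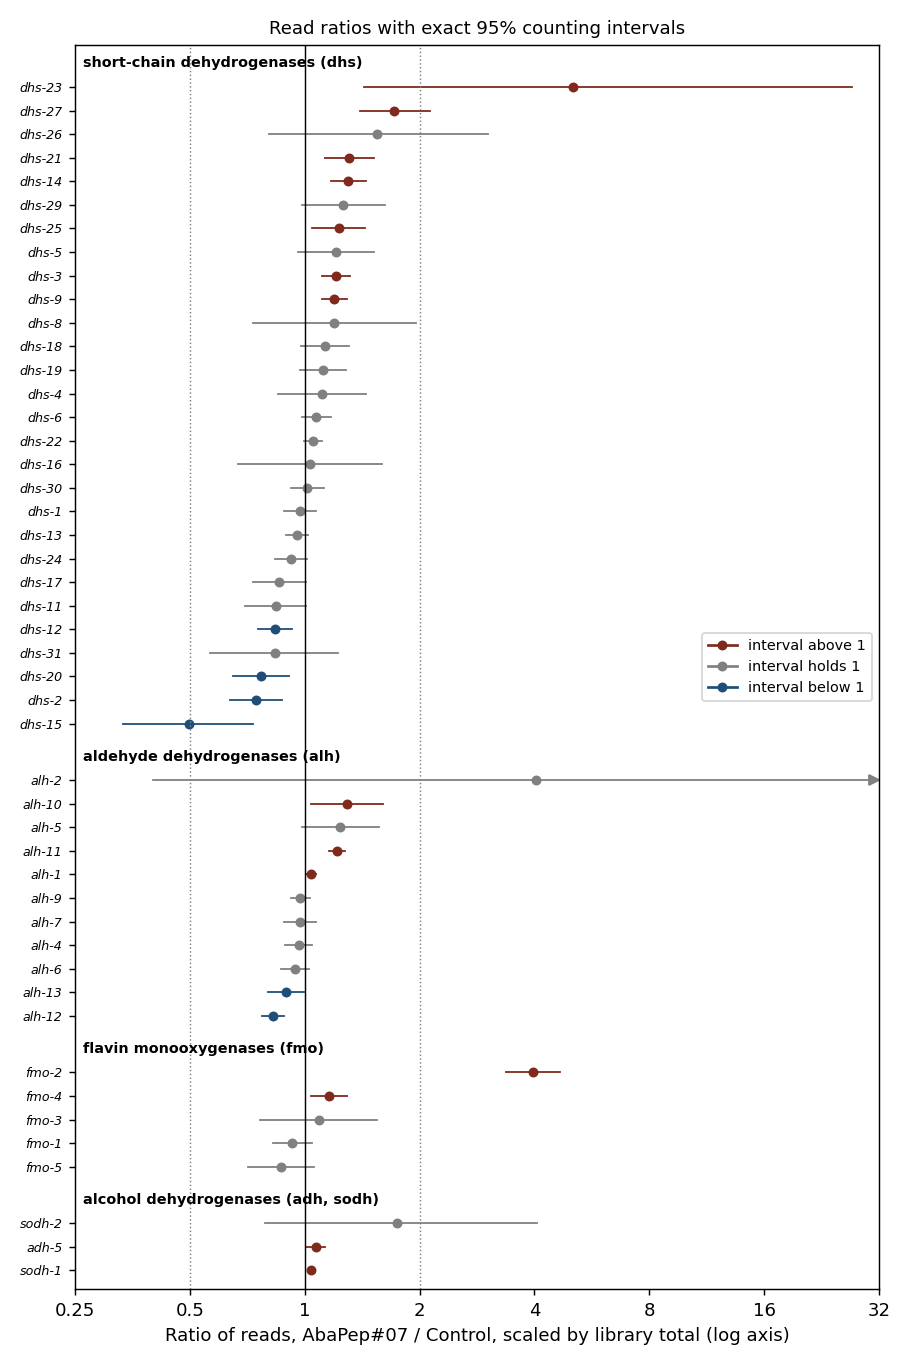
Ratio of estimated reads, AbaPep#07 over Control, scaled by the library total (log axis), for each of the 47 genes; points are ratios, horizontal lines exact 95% counting intervals, and dotted lines mark 0.5 and 2. The interval of *fmo-2* alone lies wholly beyond 2-fold, and those of *alh-2* and *dhs-23* are the widest; the arrow marks an interval that runs past the axis.

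No aldehyde dehydrogenase was called in either direction, and the 10 *alh* genes with at least 100 reads all lay within 1.5-fold, as did 90.5% of all genes with that many reads. The abundant *alh-1* had 9468 reads with AbaPep#07 and 9202 in Control, a ratio of 1.04 (1.01 to 1.07). *alh-12* was the lowest, with 1643 reads with AbaPep#07 and 2005 in Control (0.827, 0.774 to 0.883). *alh-11* and *alh-10* were higher, with ratios of 1.22 (1.16 to 1.28) and 1.29 (1.04 to 1.60). *alh-9*, the homologue of antiquitin in lysine breakdown, had 2232 reads with AbaPep#07 and 2314 in Control (0.973, 0.918 to 1.03). *alh-4*, related to fatty aldehyde dehydrogenase, had 1176 and 1231 (0.964, 0.889 to 1.04), and *alh-7*, related to succinate semialdehyde dehydrogenase, had 796 and 826 (0.972, 0.881 to 1.07). The intervals of these 3 genes hold a ratio of 1.

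The family holds 2 genes of proline metabolism, which act on pyrroline-5-carboxylate in opposite directions. *alh-6* encodes the mitochondrial enzyme that oxidizes pyrroline-5-carboxylate to glutamate in proline breakdown, and its loss is known to activate SKN-1. It had 1050 reads with AbaPep#07 and 1124 in Control, a ratio of 0.942 (0.866 to 1.03) that counting error covers. *alh-13* encodes the synthase that makes pyrroline-5-carboxylate from glutamate. It had 640 reads with AbaPep#07 and 723 in Control (0.893, 0.802 to 0.995), a difference barely beyond counting error.

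All 3 alcohol dehydrogenase genes had read ratios above 1, as did 9321 of all 18510 genes, and none was called. *sodh-1* is the main alcohol dehydrogenase gene of nematodes and takes part in ethanol metabolism. It had 28539 reads with AbaPep#07 and 27695 in Control (1.04, 1.02 to 1.06). *adh-5*, the homologue of the glutathione-dependent formaldehyde dehydrogenase, had 2464 and 2330 reads (1.07, 1.01 to 1.13). Both intervals lie above 1, as do those of 23.8% of all genes with at least 100 reads. At 56234 reads of *sodh-1* and 4794 of *adh-5* over both libraries, small differences exceed counting error. These differences are small, with log2 read ratios of 0.06 and 0.09. *sodh-2* had 19 reads with AbaPep#07 and 11 in Control (1.74, 0.788 to 4.05), and its interval holds 1.

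Members lie near each other at 4 places with at most 3 genes between them. Chromosome V carries 20 of the 47 genes (42.6%), against 23.8% of the 18505 genes of the table with a position. *dhs-14* and *dhs-15* lie on the minus strand 3160 bases apart with 1 protein-coding gene between them. *dhs-14* was higher with AbaPep#07 and *dhs-15* lower, so that the TPM of *dhs-14* was 21.2 times that of *dhs-15* with AbaPep#07 and 8.13 times in Control. On chromosome IV, *fmo-1* lies 18301 bases from *fmo-2* with 3 genes between. The TPM of *fmo-1* was 0.589 times that of *fmo-2* with AbaPep#07 and 2.51 times in Control, as *fmo-2* was higher with AbaPep#07 and *fmo-1* was not. *fmo-5* and *adh-5* lie 8108 bases apart on chromosome V with 1 gene between, and the TPM of *fmo-5* was 0.103 times that of *adh-5* with AbaPep#07 and 0.132 times in Control. *sodh-1* and *sodh-2* lie on opposite strands of chromosome V and share 70 exonic bases at their ends. With so few reads of *sodh-2*, no difference between the libraries in their relative level was detectable.

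**Figure D3:**
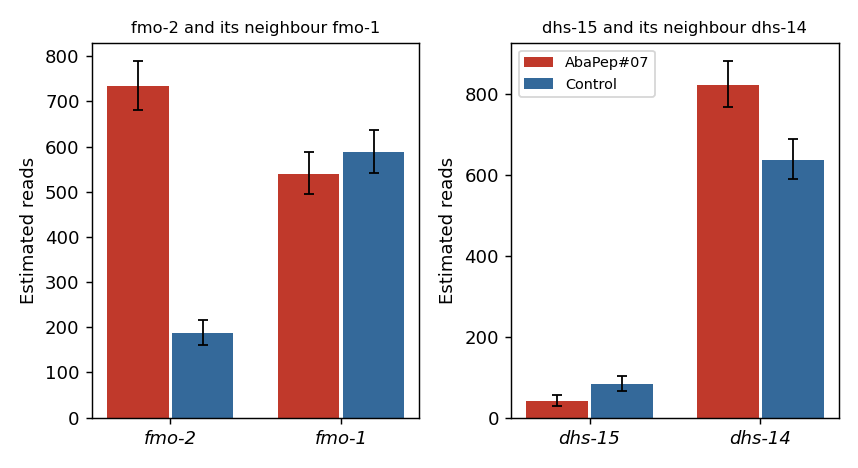
Estimated reads of the 2 pairs of neighbouring genes that hold a called gene, in the AbaPep#07 library (left bars) and the Control library (right bars), with exact 95% Poisson intervals that cover counting error only. *fmo-2* had 734 and 187 reads beside 540 and 587 for *fmo-1*, and *dhs-15* had 41 and 83 reads beside 823 and 638 for *dhs-14*.

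Genes outside the 47 with the same domains in the table's InterPro annotation were counted for comparison. Of 48 other genes with a short-chain dehydrogenase domain, 0 were called in either direction, against 2.1% higher and 1.43% lower over all genes. The intervals of 11 (22.9%) lay above 1 and that of 1 (2.08%) below, against 16.1% and 16% over all genes. Of the 23 with at least 100 reads these were 10 (43.5%) and 1 (4.35%), against 23.8% and 24.3% of all genes with that many. The median log2 read ratio of the 23 was 0.15, where the 24 *dhs* members with that many reads had a median of 0.09. The 10 include *dhs-28* (1.33, 1.26 to 1.41) and *ard-1*, whose direction depends on the unit, with a read ratio of 1.10 (1.04 to 1.16) but a log2 FPKM ratio of -0.43. *let-767*, which encodes a long-chain reductase of fat synthesis, had 4161 reads with AbaPep#07 and 3141 in Control (1.34, 1.28 to 1.40), and was named after its values had been seen. The extremes by FPKM ratio rested on few reads: C06B8.3, C01G12.5 and T25G12.13 had at most 3 reads with AbaPep#07 and 0 in Control, and T01G6.10 had 4 and 13, F28H7.2 7 and 14, and C06E4.6 2 and 4. Of 8 other genes with an alcohol dehydrogenase domain, 0 were called. Their intervals lay above 1 for 1 gene (12.5%) and below for 4 (50%), against 16.1% and 16% of all genes. Of the 6 with at least 100 reads these were 1 (16.7%) and 4 (66.7%), against 23.8% and 24.3% of all genes with that many. The highest ratios of the 8 genes were those of R04B5.6 (1.42, 0.734 to 2.82), Y48A6B.9 (1.31, 1.02 to 1.68) and R04B5.5 (1.17, 0.977 to 1.40). The lowest were those of F39B2.3, *mecr-1* and *rad-8*, between 0.836 and 0.847. Of the 2 *alh* genes left out, *alh-8* had 36504 reads with AbaPep#07 and 30680 in Control (interval of the ratio 1.18 to 1.22), and *alh-3* had a ratio of 1.06 (1.01 to 1.10). Of the 2 other flavin monooxygenase-like genes, C01H6.4 had a ratio of 1.49 (1.05 to 2.12) and C46H11.2 of 1.12 (0.973 to 1.29). Intervals lay above 1 for 2 of the 2 *alh* genes and for 1 of the 2 flavin monooxygenase-like genes, against 23.8% of all genes with at least 100 reads. With 7972 reads of *alh-3* and 67184 of *alh-8* over both libraries, an interval can exclude 1 at a small difference. Of these 4 genes, 0 were called.

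**Figure D4:**
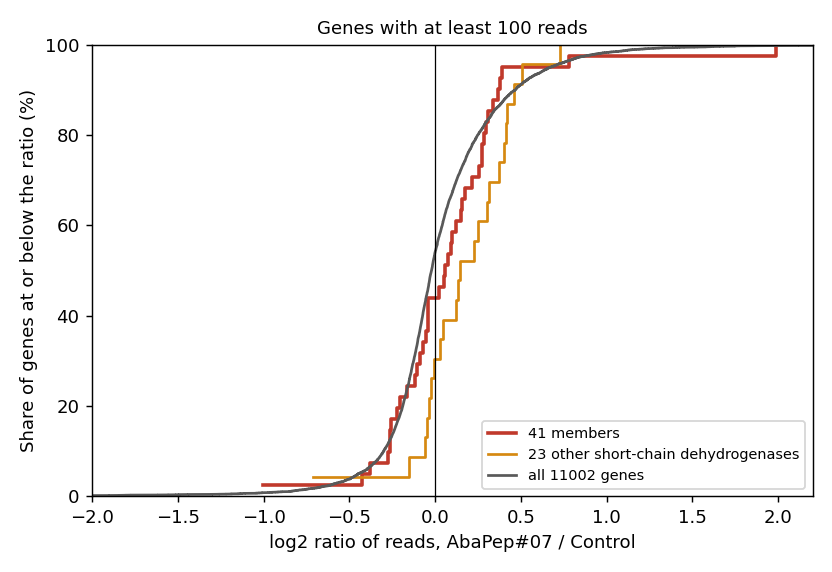
Cumulative share of genes (%) by log2 ratio of reads, AbaPep#07 over Control, among genes with at least 100 reads over both libraries, for 41 members, 23 other short-chain dehydrogenase genes and all 11002 genes. The 3 curves cross 50% at 0.06, 0.15 and -0.02, and the step of the members furthest to the right is *fmo-2*.

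How reads were assigned bears on some members. RSEM divides reads that match several genes, and 3 members, *dhs-12*, *alh-4* and *alh-11*, had read estimates that were not whole numbers in either library. *dhs-12* (chromosome IV, 10145249 to 10146222 in RefSeq) has a longer annotated transcript in Ensembl, from 10142455, that shares 65 exonic bases with *gst-4*, a glutathione transferase gene widely used as a reporter of SKN-1. The estimates of these 2 genes add up to whole reads, 1049 with AbaPep#07 and 1224 in Control. The ratio of *dhs-12* was 0.834 (0.751 to 0.926) and that of *gst-4* 0.922 (0.801 to 1.06), and neither interval covers an error in the division. For *alh-11* the length implied by its reads and FPKM was 4304 bases with AbaPep#07 and 4272 in Control, while the exons annotated to it in Ensembl cover 2213 bases, so its TPM may rest on another gene model. In all, 16 members share exonic bases with another protein-coding gene, none of them *fmo-2*, *dhs-15* or *dhs-23*. Most of these overlaps lie on opposite strands, where partners share between 2 and 75 exonic bases. Without strand, reads that lie within the shared bases could match both genes. Beside *dhs-4*, the overlapping T05F1.9 had 103 reads with AbaPep#07 and 48 in Control, and beside *dhs-18*, C45B11.6 had 276 and 149. F35B12.9, which shares 65 exonic bases with *dhs-20* on the opposite strand, had 940 reads with AbaPep#07 and 1254 in Control, lower like *dhs-20*. *dhs-20* also shares 82 exonic bases on the same strand with *idpp-16*, which has no read estimates here. The part of these overlapping genes in the ratios of *dhs-4*, *dhs-18* and *dhs-20* was not tested.

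The unit of the ratio changed the direction of 4 members, all within 0.26 of 0 on the log2 scale. *dhs-11*, which has 2 annotated transcripts, had 211 reads with AbaPep#07 and 254 in Control, a log2 ratio of -0.25, but 25.2 and 24.5 TPM, a log2 ratio of 0.04. The length implied by its reads and FPKM was 376 bases with AbaPep#07 and 442 bases in Control. *dhs-1* and *alh-9* were negative except by TPM. By the column sums, log2 ratios by TPM lie 0.06 above those by FPKM across the whole table, and the change in these 2 genes is of that size. *alh-7* was negative by reads and positive by FPKM and TPM. No direction can be given for these 4 genes.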

How the data were processed

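Poly(A) RNA of whole nematodes was sequenced from 2 libraries, 1 per condition, as paired reads on the BGISEQ-500. Per the labels and the methods, the authors cleaned reads with SOAPnuke, aligned these against coding genes by Bowtie2 (2.2.5) and estimated expression with RSEM (1.2.12), with WBcel235 as the build. The deposited estimated counts are not normalized, and the FPKM and TPM values were scaled by the authors for length and depth and rounded to 2 decimals. Strand was not given in the sources used here. The authors' own log2 ratio, p-value and FDR columns were not used, and 0 columns of values per sample were unassigned.

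The test named in the methods, after Audic and Claverie, was recomputed on estimated counts rounded down, where the lower tail alone counts the observed value, with Benjamini-Hochberg adjustment over 18510 genes, and 0.01 in place of an FPKM of 0. It compares 2 libraries, not 2 conditions. Read ratios have exact (Clopper-Pearson) 95% intervals from the binomial split of reads rounded to whole numbers. PCR copies were not told apart, so intervals cover counting error only. The quasi-likelihood test of edgeR needs replicates and could not be fitted. Alternatives used R 4.3.3 with DESeq2 (1.42.0) and edgeR (4.0.16), and the rest Python 3.11.15 with numpy 2.4.6, pandas 2.3.3, scipy 1.17.1 and matplotlib 3.10.9. Calls and intervals were tested on simulated Poisson counts without variation between cultures, with changes placed only in genes with at least 100 reads. Such data do not test calls at fewer reads or near the thresholds. The members and lists were chosen with earlier results of these data known. Full statistics were given for members called, those whose interval excludes 1 with at least 100 reads and a log2 read ratio of at least 0.5 in size, all *fmo*, *adh* and *sodh* genes, and the 5 *dhs* and 5 *alh* genes of highest Control TPM. Other members were named after their values had been seen. Of genes with the same domains, those called and the 3 highest and 3 lowest by FPKM ratio were to be named. All 47 gene IDs were found in RefSeq (WBcel235).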

Additional observations from a re-analysis of the deposited data

How the results depend on the processing

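The number of members called higher with AbaPep#07 was 2, and 1 was called lower. With scaling by library totals or DESeq2 size factors, and with both tails of the test including the observed count, both numbers stayed the same. By TPM and after TMM scaling, the numbers were 2 and 0. A minimum of 20 reads gave 1 and 1. Bonferroni adjustment and the addition of 1 FPKM each gave 1 and 0, and so did a test by edgeR in which cultures were assumed to vary with a coefficient of 0.1 or 0.2. In each of these the gene was *fmo-2*. With a coefficient of 0.4 both numbers were 0, while 6 genes of the whole table were called higher and 1 lower. These coefficients are assumptions, since the variation between cultures is not measured here. Among all genes, the numbers called higher and lower fell to 182 and 136 with 1 FPKM added, to 172 and 96 with Bonferroni adjustment, to 219 and 144 with a coefficient of 0.1, and to 50 and 40 with a coefficient of 0.2, against 388 and 265.

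The 14 and 6 members with an interval above and below 1 were 14 and 6 with DESeq2 size factors, 15 and 5 after TMM scaling and 10 and 5 with 99% intervals. Among the 30 members without overlapping exons or divided reads, an alternative chosen after seeing the data, they were 8 and 4, since fewer genes were counted. The median log2 FPKM ratio of the 47 genes was 0.08 and ranged between 0.06 and 0.14 over all alternatives. The 0.14 was the value by TPM. Over all 18510 genes the median was -0.02 by FPKM and 0.03 by TPM. No paired analysis was possible because each condition is 1 library, and for the same reason no replicate could be left out. Depth limits the 6 members with fewer than 100 reads, whose intervals, apart from that of *dhs-23*, all hold a ratio of 1.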
